A study of Mus musculus with 11 samples.

Results

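Class I major histocompatibility complex (MHC) genes and the genes that load them with peptide were followed across 2 kinds of macrophage from mouse mammary tumours. The 9 genes were chosen by symbol: the heavy chains H2-K1, H2-D1, H2-M2, H2-M3 and H2-T23, the light chain B2m, and the loading genes Tap1, Tap2 and Tapbp. They are 9 of the 17475 genes in the deposited table, each found as 1 entry. Messenger RNA was sequenced in 11 libraries from 6 female PyMT mice, a strain backcrossed to B6 in which a viral oncogene drives mammary tumours.

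The groups were TAMs of MYC mice (n = 3, from mice 2, 4 and 6), MTMs of MYC mice (n = 2, from mice 2 and 4), TAMs of control mice (n = 3, from mice 1, 3 and 5) and MTMs of control mice (n = 3, from mice 1, 3 and 5). MYC mice had the genotype S100a8-cre Rosa26-LSL-MYC PyMT, and control mice had PyMT alone. In MYC mice, Cre is driven by a promoter best known from neutrophils and their precursors. Every mouse, control mice included, had been lethally irradiated when 7 weeks old and given 3 M (M for mega) wild-type B6 bone marrow cells. The transplant was followed after 2 weeks by a change to low protein food, which all mice ate for 6 weeks. Marrow-derived cells in both genotypes could therefore come from wild-type donors, and how many host cells remained is not given in the sources used here. There was no group on another diet. TAMs (tumour-associated macrophages) were sorted as F4/80+ Vcam+ cells and MTMs (mammary tissue macrophages) as F4/80+ Vcam- FOLR2+ cells, after cells with SiglecF, Ly6G, B220 or Ly6C had been gated out.

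Values are the deposited log2 levels, which behave as the log2 of a depth-scaled, length-divided read number plus 1.00. The length used for each gene is not given in the sources used here, so levels of different genes compare only roughly. A difference on this scale understates the change of low genes. The libraries held an estimated 33.8 to 44.7 M reads in genes. The 9 macrophage markers checked were detected in every library, among them Lyz2 at 12.36 to 14.57 and Csf1r at 7.59 to 10.74. The gate genes did not all follow the gates. Folr2 was at 1.07 to 3.62 in MYC TAMs and 8.07 to 8.45 in MYC MTMs, and at 0.96 to 1.77 in control TAMs and 7.67 to 8.05 in control MTMs. Vcam1 was at 0.96 to 2.82 in the 3 libraries labelled MYC TAMs, against 7.64 to 8.60 in control TAMs, and at 2.31 to 2.32 in MYC MTMs, against 5.25 to 6.86 in control MTMs. The transcript of the gate that defines TAMs was thus low in all libraries of MYC TAMs, which every comparison with them shares. Mouse Myc was at 1.78 to 2.16 in MYC TAMs and 2.66 to 3.18 in control TAMs, and whether reads of the MYC transgene count towards it is not given in the sources used here.

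Class I molecules show fragments of a cell's own proteins to CD8 T cells and natural killer cells. Each is a heavy chain paired with the invariant light chain. Peptides made by the proteasome are pumped into the endoplasmic reticulum by the transporter formed by Tap1 and Tap2, and tapasin, the product of Tapbp, holds empty heavy chains at the transporter until a peptide binds. Macrophages carry class I like most nucleated cells, and interferons raise many genes of the pathway through shared promoter elements.

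H2-D1 had the highest level of the 9 genes and H2-M2 the lowest. Over the 11 libraries the mean log2 level was 11.58 for H2-D1, 10.597 for B2m, 8.14 for H2-K1, 7.47 for H2-M3, 6.73 for Tapbp, 6.66 for H2-T23, 5.77 for Tap1, 5.26 for Tap2 and 2.93 for H2-M2. Ranked by mean level among all 17475 genes, H2-D1 stood at place 11 and B2m at place 22, while H2-M2 stood at place 4878. The first 5 genes of this order kept it in 11 of 11 libraries. Below them the order held less firmly: Tapbp was above H2-T23 in 8 of 11 libraries, H2-T23 above Tap1 in 10 of 11, Tap1 above Tap2 in 10 of 11 and Tap2 above H2-M2 in 9 of 11. Of the summed linear level of the 5 heavy chains, H2-D1 made up 77.8% to 87.9% and H2-K1 5.64% to 11.2%. The order and these shares depend on the lengths used. H2-T23, for example, has 2889 bases of exon but 1472 in its longest coding transcript, while H2-M3 has 1438 by both measures. Within groups, H2-D1 was the steadiest of the heavy chains, with standard deviations of 0.04 to 0.13. That of B2m was 0.04 in control TAMs and 0.76 in control MTMs, where 1 library stood apart.

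**Figure D1:**
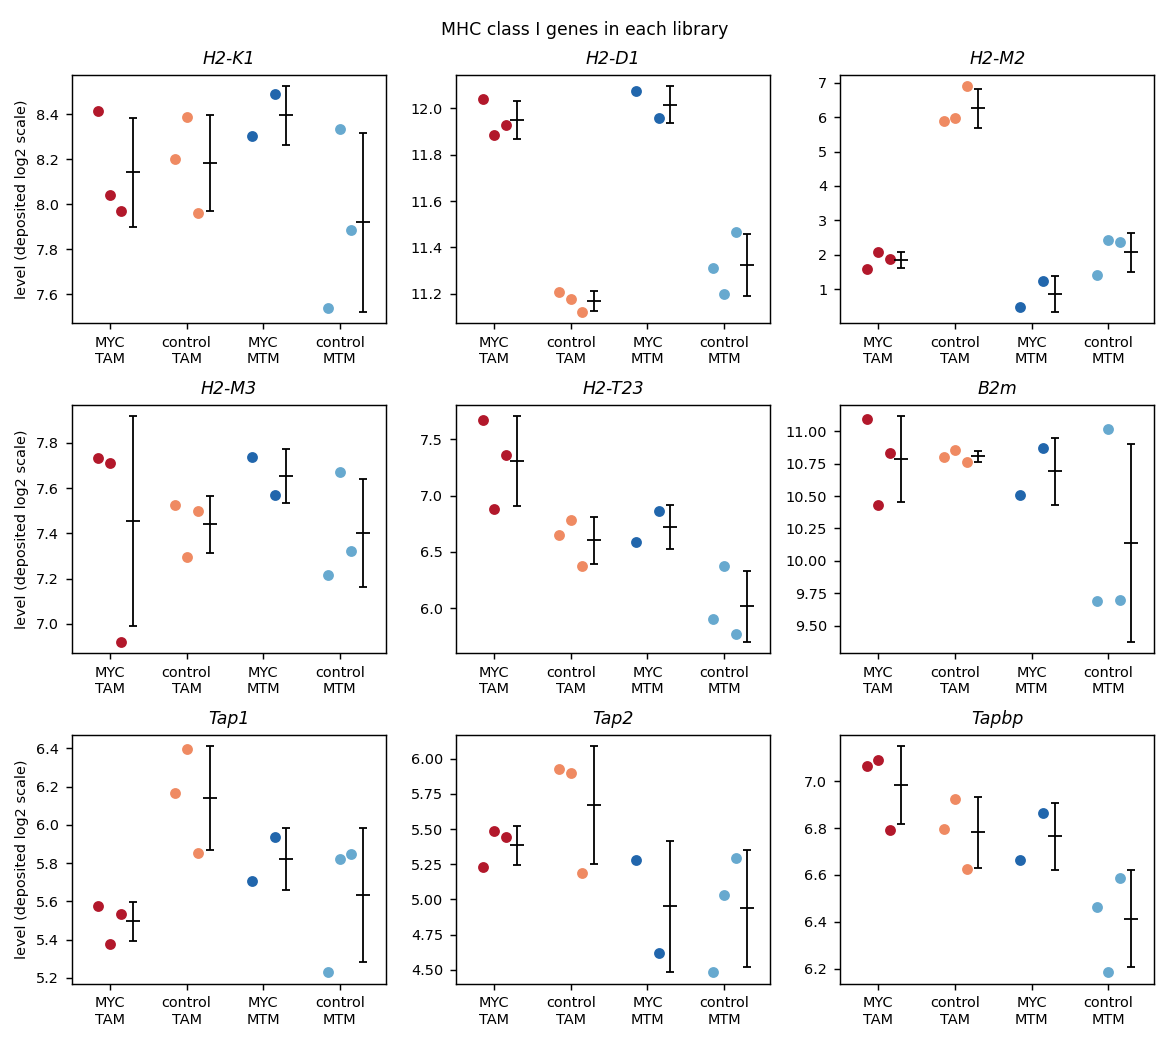
Log2 level of each of the 9 genes in every library, with MYC TAMs, control TAMs, MYC MTMs and control MTMs from left to right. Points are libraries and the bars give the mean ± SD. H2-M2 lies at 5.89 to 6.91 in control TAMs and at 2.42 or below in the other 8 libraries, and H2-D1 lies higher in the 5 MYC libraries than in the 6 control libraries.

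H2-M2 was the member that differed most. Its heavy chain belongs to the non-classical class I molecules of the H2-M region, and the gene lies at chr17:37480851-37483552 on the minus strand of GRCm38. Its log2 level was 1.59, 2.07 and 1.87 in MYC TAMs, against 5.89, 5.96 and 6.91 in control TAMs. It was 0.49 and 1.24 in MYC MTMs, against 1.40, 2.42 and 2.38 in control MTMs. The 3 control TAM libraries therefore stood apart from the other 8, with no overlap. In estimated reads, H2-M2 had 99, 123 and 130 in MYC TAMs, against 2602, 2893 and 5416 in control TAMs, so the low values rest on far fewer reads. In bulk libraries such as these, fewer cells of a type and less RNA per cell cannot be told apart.

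H2-M2 fell in MYC TAMs relative to control TAMs by 4.41 ± 0.37 on the log2 scale (SE, 95% interval -5.24 to -3.59), with limma's adjusted p = 8.94e-05. This is 21.3-fold on the deposited scale. It was higher in control TAMs than in control MTMs, by 4.19 ± 0.37 (SE, limma adjusted p = 0.000425), an 18.2-fold difference. In MYC mice the TAM and MTM libraries did not overlap either, with TAMs higher by 0.98 ± 0.41 (SE), but that difference did not pass the threshold of 0.05 (limma adjusted p = 0.262). In MTMs, H2-M2 was lower in MYC mice by 1.20 ± 0.41 (SE), a difference of -1.20 that also missed the threshold (limma adjusted p = 0.319). The cell type difference itself (TAMs minus MTMs) was smaller in MYC mice than in control mice, by -3.21 ± 0.55 (SE, 95% interval -4.45 to -1.97, limma adjusted p = 0.0286). With mouse entered as a fixed term, the last difference was -3.22 and missed the threshold (limma adjusted p = 0.0578); with the mouse as a random effect it was -3.21 and passed (limma adjusted p = 0.0163). It passed in 2 of the 11 fits that left out a library. The calls of H2-M2 in MYC TAMs against control TAMs and in control TAMs against control MTMs passed under every alternative tried. Its call for the change in the cell type difference passed in 9 of 22.

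H2-D1, a classical heavy chain with the highest level of the set, was the other member that changed between genotypes. It lies at chr17:35262730-35267499 on the plus strand. The log2 level of H2-D1 was 12.04, 11.88 and 11.93 in MYC TAMs, against 11.21, 11.18 and 11.12 in control TAMs. In MTMs it was 12.07 and 11.96 in MYC mice, against 11.31, 11.20 and 11.47 in control mice. All 5 MYC libraries were above all 6 control libraries. H2-D1 rose in MYC TAMs by 0.78 ± 0.18 (SE, 95% interval 0.37 to 1.19, limma adjusted p = 0.0182), which is 1.72-fold. In MTMs the difference was nearly as large, at 0.69 ± 0.20 (SE), and missed the threshold (limma adjusted p = 0.229). The genotype difference in TAMs exceeded that in MTMs by 0.09 ± 0.27 (SE, limma adjusted p = 0.909). The call in TAMs was lost when any 1 of 3 libraries was left out: without mouse 4 of the MYC TAMs adjusted p = 0.0594, and without mouse 3 or mouse 5 of the control TAMs it was 0.0606 or 0.0746 (limma).

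H2-K1, the other classical heavy chain, lies at chr17:33996017-34000347 on the minus strand and gave no difference of that kind. Its log2 level was 7.97 to 8.42 in MYC TAMs and 7.96 to 8.39 in control TAMs, ranges that almost coincide. The difference was -0.04 ± 0.22 (SE, 95% interval -0.54 to 0.46, limma adjusted p = 0.916), so a change of the size seen for H2-D1 lay outside its interval. In MTMs H2-K1 was at 8.30 and 8.49 in MYC mice and at 7.54 to 8.33 in control mice, a difference of 0.47 ± 0.25 that was not called (SE, limma adjusted p = 0.596). H2-D1 accounted for 84.7%, 86.5% and 87.9% of the summed heavy chain level in the MYC TAM libraries, and for 77.8%, 78.0% and 78.9% in the control TAM libraries. In MTMs the shares overlapped, at 85.7% and 87.4% in MYC mice and 79.4%, 86.2% and 86.6% in control mice.

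The counting of these paralogs is uncertain. Of all windows of 50 bases in its longest coding transcript, H2-T23 shares 28.8% with transcripts of other genes, H2-D1 14.3%, mainly with H2-Q1, and H2-K1 8.79%, mainly with H2-D1. For H2-M2 that share is 1.67%, for H2-M3 0.576%, and for B2m 0%. How reads from shared stretches were assigned is not given in the sources used here.

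The promoters of the classical pair and of H2-M2 are shown because they hold different sets of exact matches to elements known for class I genes. Each sequence is the 250 bases before the RefSeq start site (GRCm38.p6), read 5′ to 3′ on the strand of the gene: chr17:35262844-35263093 for H2-D1, chr17:34000348-34000597 for H2-K1 and chr17:37483555-37483804 for H2-M2. Capitals mark matches on either strand to the kappaB element (the capital run of 11 bases), the interferon response element GAANNGAAA, the core of the cyclic AMP response element TGACG and the Y box ATTGG.

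H2-D1: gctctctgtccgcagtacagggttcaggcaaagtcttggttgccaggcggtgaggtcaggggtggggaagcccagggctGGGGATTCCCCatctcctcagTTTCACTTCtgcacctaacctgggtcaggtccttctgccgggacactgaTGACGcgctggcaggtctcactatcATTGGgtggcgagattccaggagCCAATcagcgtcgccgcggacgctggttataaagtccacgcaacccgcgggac
H2-K1: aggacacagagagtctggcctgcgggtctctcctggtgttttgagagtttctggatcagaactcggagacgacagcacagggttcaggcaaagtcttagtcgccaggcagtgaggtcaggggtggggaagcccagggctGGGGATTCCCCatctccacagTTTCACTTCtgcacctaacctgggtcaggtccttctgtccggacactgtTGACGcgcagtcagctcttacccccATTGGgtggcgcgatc
H2-M2: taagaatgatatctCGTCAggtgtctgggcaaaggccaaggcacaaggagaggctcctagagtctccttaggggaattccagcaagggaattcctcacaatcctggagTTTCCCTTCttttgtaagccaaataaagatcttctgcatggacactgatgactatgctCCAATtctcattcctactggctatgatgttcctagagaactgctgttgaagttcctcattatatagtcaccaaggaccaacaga

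H2-D1 and H2-K1 carry the 4 elements in the same order and at the same spacing, from the kappaB element to the first Y box. The kappaB match begins 171 bases before the annotated start in H2-D1 and 111 bases before it in H2-K1. These distances depend on where the start is annotated, and H2-K1 has 2 RefSeq entries, of which the first was used. In H2-M2 the interferon response element begins 142 bases before the start. It is matched as its reverse complement there, in H2-D1 and in H2-K1. The core of the cyclic AMP response element is reversed in H2-M2 alone of these promoters, and begins 236 bases before the start. The exact kappaB string was not found in the H2-M2 window, and other forms of that element were not searched for. The full kappaB string was rare: it occurred in 0.0222% of 27025 mouse promoters of the same length, which are 6 promoters, among them H2-D1, H2-K1 and H2-Q6. Among the 8 members with a promoter in the RefSeq table (all but Tap2), 2 held the full kappaB string, 4 the interferon response element, 6 the cyclic AMP response element core and 8 the Y box. The shares of all promoters with the last 3 elements were 6.34%, 17.9% and 34.5%. Only the strings given above were searched for, so a member without a match may hold another form. The B2m window holds gaaactgaaa, a longer form of the interferon response element that was not counted. The E-box CACGTG, the preferred site of MYC, was in the window of 0 of the 8 members and of 6.05% of all promoters. A match is a description of letters in this window only.

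**Figure D2:**
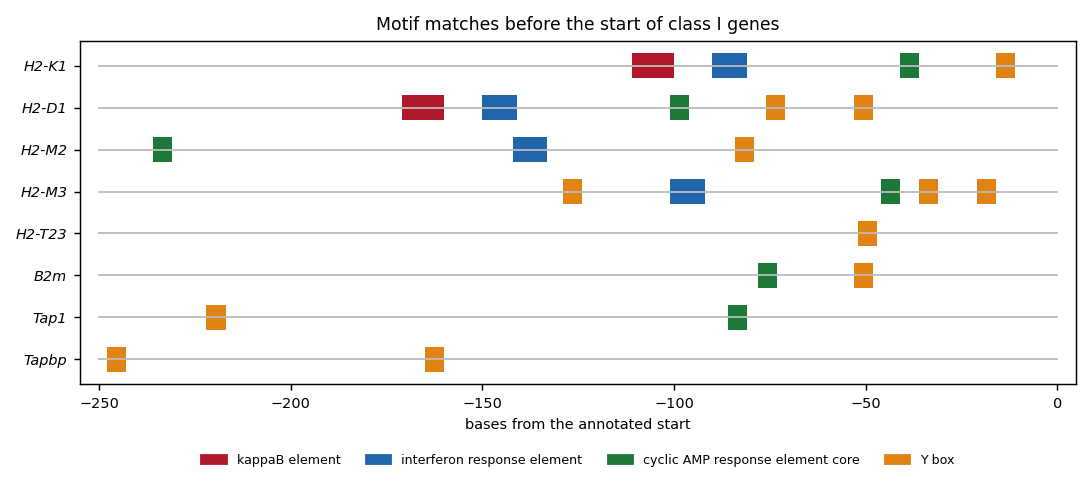
Positions of the motif matches in the 250 bases before the annotated start of the 8 members with a RefSeq promoter, in bases from the start. H2-D1 and H2-K1 hold the full kappaB string. H2-K1, H2-D1, H2-M2 and H2-M3 hold the interferon response element as GAANNGAAA, and other forms are not drawn.

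H2-T23 and H2-M3 are non-classical heavy chains with known duties. H2-T23 encodes the heavy chain of Qa-1, a ligand of inhibitory receptors on natural killer cells, and lies at chr17:36029773-36032855 on the minus strand. Its log2 level was 7.67, 6.88 and 7.36 in MYC TAMs, against 6.65, 6.78 and 6.38 in control TAMs. The groups did not overlap, but the difference of 0.70 ± 0.23 missed the threshold (SE, limma adjusted p = 0.0742). It was 6.59 and 6.86 in MYC MTMs, against 5.90, 6.37 and 5.77 in control MTMs, again without overlap, with a difference of 0.71 ± 0.26 (SE, limma adjusted p = 0.365). Without the MYC TAM library of mouse 4 the difference in TAMs was 0.92 and passed (limma adjusted p = 0.0333).

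H2-M3, at chr17:37270220-37274484 on the plus strand, presents peptides that begin with formylmethionine, a mark of bacterial and mitochondrial proteins. It was at 6.92 to 7.73 in MYC TAMs and 7.30 to 7.53 in control TAMs, and at 7.57 and 7.74 in MYC MTMs and 7.22 to 7.67 in control MTMs. The ranges overlapped in both comparisons, and the differences were 0.01 ± 0.23 in TAMs and 0.25 ± 0.25 in MTMs (SE, limma adjusted p = 0.974 and 0.908).

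B2m, the light chain that all these heavy chains need at the cell surface, lies at chr2:122147686-122153083 on the plus strand. It was at 11.09, 10.43 and 10.83 in MYC TAMs, against 10.80, 10.85 and 10.76 in control TAMs. The difference was -0.02 ± 0.35 (SE, 95% interval -0.81 to 0.77, limma adjusted p = 0.977). In MTMs it was at 10.51 and 10.87 in MYC mice, against 9.69, 11.02 and 9.70 in control mice, where 1 library stood well above the other two. Without that library, of control mouse 3, B2m was higher in control TAMs than in control MTMs (limma adjusted p = 0.0385), whereas with it the difference was 0.67 ± 0.35 (SE, limma adjusted p = 0.552).

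The loading genes gave no call. Tap1, at chr17:34187553-34197225 on the plus strand, was at 5.57, 5.38 and 5.53 in MYC TAMs, against 6.16, 6.40 and 5.85 in control TAMs. The MYC values were all below the control values, but the difference of -0.64 ± 0.20 missed the threshold (SE, limma adjusted p = 0.0588), and it passed in 3 of 22 alternatives. In MTMs Tap1 was at 5.71 and 5.94 in MYC mice and 5.23 to 5.85 in control mice, a difference of 0.19 ± 0.22 (SE, limma adjusted p = 0.950). The test that the genotype difference of Tap1 is the same in both cell types gave -0.83 ± 0.30 (SE, limma adjusted p = 0.308).

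Tap2, the partner of Tap1 (chr17:34203527-34216321, plus strand), was at 5.23 to 5.49 in MYC TAMs and 5.18 to 5.93 in control TAMs, with overlap (difference -0.28 ± 0.28, SE, limma adjusted p = 0.519). Tapbp (chr17:33915899-33929292, plus strand) was at 6.79 to 7.09 in MYC TAMs and 6.63 to 6.92 in control TAMs, also with overlap (difference 0.20 ± 0.16, SE, limma adjusted p = 0.425). In MTMs Tapbp was at 6.66 and 6.87 in MYC mice and 6.18 to 6.59 in control mice, without overlap, and the difference of 0.35 ± 0.17 was not called (SE, limma adjusted p = 0.557).

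**Figure D3:**
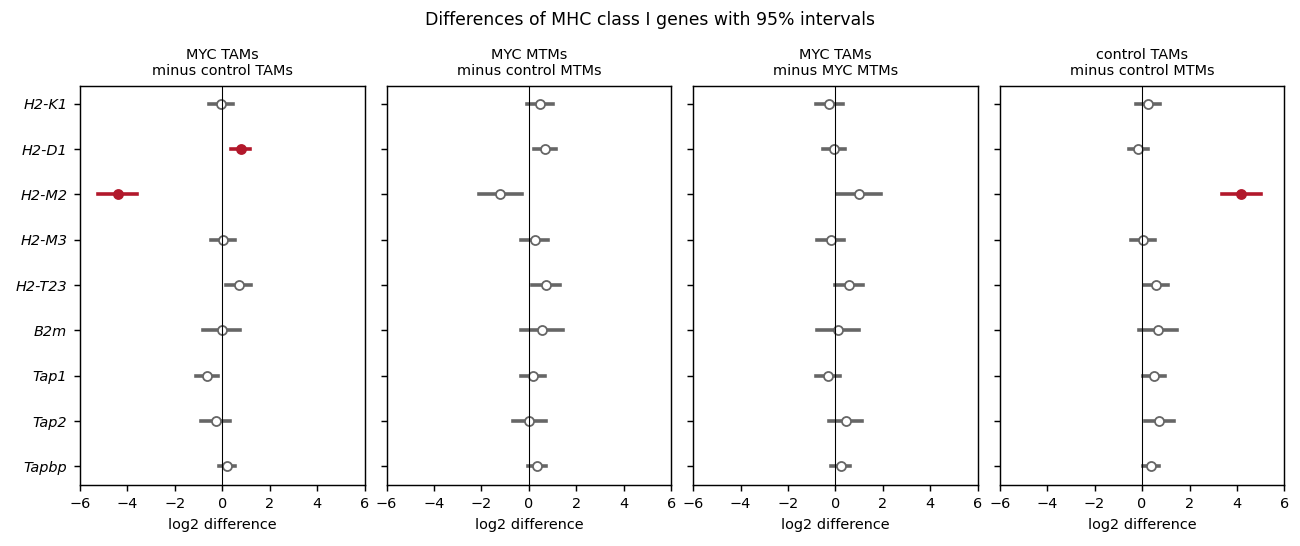
Log2 differences of the 9 genes with 95% intervals in 4 comparisons. Filled red points passed limma's test at an adjusted p below 0.05. H2-M2 at -4.41 and H2-D1 at 0.78 pass in MYC TAMs minus control TAMs, and H2-M2 at 4.19 passes in control TAMs minus control MTMs.

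Counted over the set, 2 of the 9 genes passed in MYC TAMs against control TAMs, where 15.9% of all 17475 genes did. Of these, 1 rose, against 3.89% of all genes, and 1 fell, against 12% of all genes. The groups did not overlap for 4 of the 9 genes, against 30.1% of all genes, with 2 higher and 2 lower, against 8.03% and 22.1%. The median difference was -0.02 over the 9 genes and -0.02 over all genes. Neither the count nor the median therefore set the 9 genes apart from all genes in this comparison. Over the genes with a mean level of 1 or more, the median was -0.21. Centring each library on its median instead of using the authors' scaling moved the median of all genes to 0.19 and turned the split of called genes from 680 higher and 2098 lower to 3516 higher and 1513 lower, while H2-M2 remained lower and H2-D1 higher, and H2-T23 also passed (0.91, limma adjusted p = 0.0376).

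In MYC MTMs against control MTMs, 0 of the 9 genes passed limma's test, where 0.618% of all genes did (0.338% higher and 0.28% lower), with only 2 MYC libraries. At an unadjusted p below 0.05 there were 3, namely H2-D1, H2-M2 and H2-T23, where 1760 of all 17475 genes had one. The groups did not overlap for 4 of the 9 genes, against 31.2% of all genes, 3 of them higher, against 11.1%, and 1 lower, against 20.1%, in MYC MTMs. The median difference was 0.35 over the 9 genes and -0.02 over all genes.

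Between the cell types of control mice, 1 of the 9 genes passed, H2-M2, where 2.37% of all genes did (0.744% higher and 1.63% lower). H2-M2, H2-T23, Tap1 and Tapbp were higher in control TAMs without overlap, against 6.9% of all genes; 12% of all genes were lower without overlap, 18.9% in both directions together. The median difference was 0.51 over the 9 genes and -0.00 over all genes. For the others of these 4, the difference was 0.59 for H2-T23, 0.51 for Tap1 and 0.37 for Tapbp, with limma adjusted p of 0.334, 0.330 and 0.376. That of Tap2 was 0.73 ± 0.28, with overlap (SE, limma adjusted p = 0.293). H2-M2, H2-T23, Tap1, Tap2 and Tapbp had an unadjusted p below 0.05, where 2061 of all 17475 genes had one. Between the cell types of MYC mice, 0 of the 9 genes passed limma's test, where 4.49% of all genes did (0.664% higher and 3.82% lower), and 1, H2-M2, had an unadjusted p below 0.05, where 2928 of all 17475 genes had one. H2-M2 and H2-T23 were higher and Tap1 lower in MYC TAMs without overlap, against 6.82% of all genes higher, 23.5% lower and 30.4% together. The difference of differences was called for 1 of the 9 genes, H2-M2, which was lower in MYC mice; it was called for 1.24% of all genes (0.24% higher and 0.996% lower).

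Within single mice, which gave both a TAM and an MTM library in 5 cases, 3 genes were higher in TAMs every time. The share of all genes that kept 1 direction in these 5 mice was not counted, so this number does not set the members apart. H2-M2 was higher by 1.10 and 0.83 in the 2 MYC mice, and by 4.49, 3.54 and 4.53 in the 3 control mice. For H2-T23 the difference ran from 0.02 to 1.09 and for Tapbp from 0.04 to 0.74. H2-D1 went the other way in all 5 mice, by -0.34 to -0.02. Tap1 was lower in TAMs of both MYC mice and higher in TAMs of all 3 control mice, with differences from -0.56 to 0.94; in control mouse 5 it was 0.0079. B2m was higher in TAMs of 3 of 5 mice, with differences from -0.44 to 1.11.

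**Figure D4:**
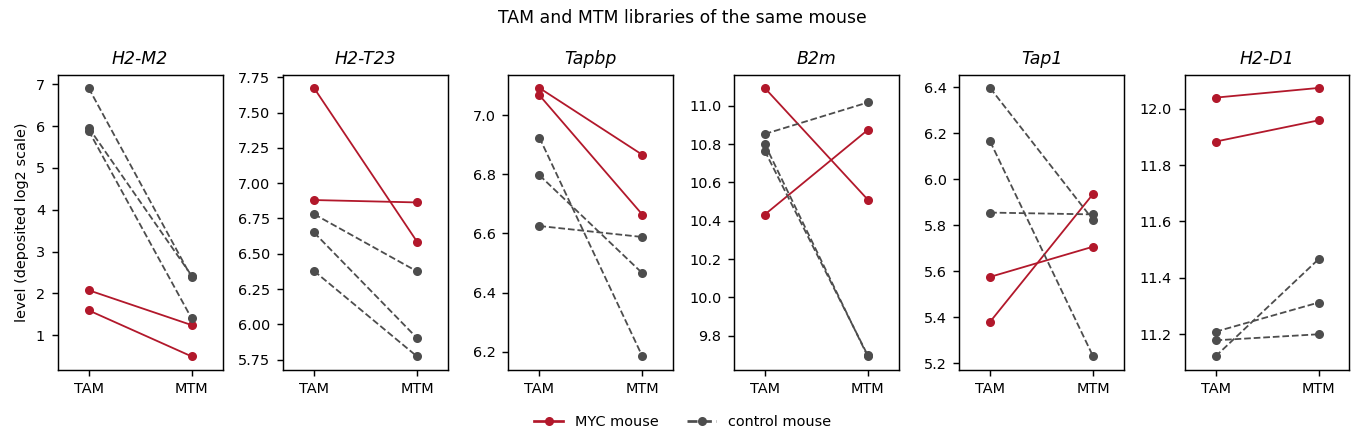
Log2 level of 6 genes in the TAM and MTM library of the same mouse, joined by a line, for 2 MYC mice and 3 control mice. H2-M2, H2-T23 and Tapbp are higher in the TAM library of all 5 mice, and H2-D1 lower.

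Markers of other cell types also differed between MYC TAMs and control TAMs, where 12% of all genes fell and 3.89% rose. Of 16 T and NK cell markers 11 fell in MYC TAMs; their summed linear level (the log2 values turned back) was 2.99 to 8.11 in MYC TAMs and 71.5 to 168 in control TAMs, and 5.60 to 24.1 in MYC MTMs and 49.6 to 65.6 in control MTMs. Between 3 and 11 of these markers were without reads in a MYC TAM library, among them Cd3e, Gzma and Prf1 in all 3, and 0 or 1 in a control TAM library. Prf1 was also without reads in every MTM library of both genotypes and in a control TAM library. Of 14 mammary epithelial markers 6 fell in MYC TAMs, with sums of 48.1 to 627 in MYC TAMs and 1259 to 2781 in control TAMs. The 6 were Cdh1, Epcam, Csn3, Wfdc18, Cldn7 and Krt7. Krt14, a basal keratin, was at 3.55 to 5.11 in MYC TAMs and 2.59 to 3.53 in control TAMs, higher without overlap but not called (limma adjusted p = 0.149), and Krt5 and Csn2 reached higher in MYC TAMs with overlap. Of 11 dendritic cell markers 5 fell, with sums of 1.50 to 5.91 in MYC TAMs and 21.0 to 23.8 in control TAMs. Of the 9 macrophage markers themselves, 2 rose and 5 fell, among them Csf1r with a mean of 7.90 in MYC TAMs and 10.47 in control TAMs, and Cd68 with 10.32 in MYC TAMs and 8.37 in control TAMs. With the mean epithelial marker level as a covariate, the difference of H2-D1 in TAMs was 0.82 ± 0.23 and not called (SE, limma adjusted p = 0.0577). It was 0.78 without the covariate. That of H2-M2 was -4.62 ± 0.58 and was called (SE, limma adjusted p = 0.0037). The covariate was at 1.68 to 3.99 in MYC TAMs and 4.25 to 5.09 in control TAMs, without overlap. Epithelial level and genotype therefore cannot be told apart by these fits. The part of the other markers in these differences was not tested.

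The wider class I pathway was followed in 4 lists. Of 21 measured other class I and class I-like heavy chains, 2 rose and 1 fell in MYC TAMs against control TAMs, where 3.89% of all genes rose and 12% fell. H2-K2, next to H2-K1 in the complex, was at 5.64, 5.32 and 4.21 in MYC TAMs, against 2.73, 3.25 and 3.90 in control TAMs, and rose by 1.76 ± 0.41 (SE, limma adjusted p = 0.0184). The call of H2-K2 was lost without the MYC TAM library of mouse 2 or 4 or the control TAM library of mouse 1 or 3, with adjusted p up to 0.0773 (limma). H2-Q1 was higher by 0.63 ± 0.18 (SE, limma adjusted p = 0.0422), and Hfe, a class I-like regulator of iron uptake, fell by 0.46 ± 0.13 (SE, limma adjusted p = 0.0461). Each of these last calls passed in only 1 of the 11 fits that left out a library.

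Between cell types the change in that list was in Fcgrt, the heavy chain of the neonatal Fc receptor, which binds antibodies rather than peptides. It was at 6.35, 6.20 and 5.64 in MYC TAMs, against 9.11 and 8.75 in MYC MTMs, and at 6.86, 5.98 and 6.28 in control TAMs, against 8.78, 8.06 and 8.87 in control MTMs. Fcgrt was lower in TAMs in both genotypes, by -2.87 ± 0.33 in MYC mice and -2.20 ± 0.30 in control mice (SE, limma adjusted p = 0.0019 and 0.0043). The call in control mice was lost with only the groups compared in the fit (limma adjusted p = 0.0681). In MYC mice Hfe was also lower in TAMs, by -0.65 ± 0.15 (SE, limma adjusted p = 0.0420, 0.0678 with the mouse as a fixed block, 0.0256 with it as a random effect, and passing in 2 of the 11 fits that left out a library).

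Of 7 loading chaperones and editors, 1 fell in MYC TAMs against control TAMs, where 12% of all genes fell, and 0 rose. The median difference was -0.58 over the list, -0.02 over all genes and -0.21 over the genes with a mean level of 1 or more. Pdia3, a disulfide isomerase of the loading complex, was at 8.20, 8.57 and 8.66 in MYC TAMs, against 9.78, 9.75 and 9.77 in control TAMs, and fell by 1.29 ± 0.20 (SE, limma adjusted p = 0.0025). Calr, the chaperone calreticulin, was at 6.75 to 7.42 in MYC TAMs and 7.49 to 8.15 in control TAMs, and that difference was not called.

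Of 13 genes of peptide supply and trimming, 3 fell in MYC TAMs, where 12% of all genes fell, and 0 rose. The median difference was -0.37 over the list, against -0.21 over the genes with a mean level of 1 or more. Lap3, a leucine aminopeptidase, was at 5.39, 5.07 and 5.50 in MYC TAMs, against 7.21, 7.22 and 7.46 in control TAMs, and fell by 1.98 ± 0.24 (SE, limma adjusted p = 0.0007). Tpp2, a large cytosolic peptidase, was at 4.61 to 4.64 in MYC TAMs and 5.61 to 6.10 in control TAMs, and fell by 1.22 ± 0.14 (SE, limma adjusted p = 0.0005). Lnpep, an endosomal aminopeptidase, fell by 0.66 ± 0.19 (SE, limma adjusted p = 0.0426), a call kept in 1 of the 11 fits that left out a library. The TAM value of Tpp2 was also below that of MYC MTMs, by -1.08 ± 0.16 (SE, limma adjusted p = 0.0056). The adjusted p was 0.0538 with the mouse as a fixed block and 0.0038 with it as a random effect (limma). With only the groups compared in the fit it was 0.0612 (limma). Without the MYC MTM library of mouse 2 the difference was -1.03, with a single MYC MTM library left.

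Of 20 genes that control class I transcription, 6 fell in MYC TAMs, where 12% of all genes fell, and 0 rose. The median difference was -0.39 over the list, against -0.21 over the genes with a mean level of 1 or more. They were both chains of the type I interferon receptor, Ifnar1 and Ifnar2, the interferon regulatory factors Irf2, Irf8 and Irf9, and Creb1, which binds the cyclic AMP response element. Ifnar1 was at 3.46, 4.03 and 4.07 in MYC TAMs, against 5.95, 5.88 and 5.86 in control TAMs, and fell by 2.04 ± 0.17 (SE, limma adjusted p = 0.0001). The fall was 1.32 ± 0.16 for Ifnar2, 0.86 ± 0.12 for Irf8 and 0.79 ± 0.17 for Creb1 (SE, limma adjusted p = 0.0007, 0.0015 and 0.0121). The call of Creb1 was lost in 4 of 22 alternatives: on centring, on quantile normalisation, with mice 4 and 6 left out of the MYC TAMs, and with the epithelial covariate, with adjusted p from 0.0513 to 0.120 (limma). In control mice Irf8 was higher in TAMs than in MTMs by 1.06 ± 0.12 (SE, limma adjusted p = 0.0017), the 1 call of the list in that comparison. In MYC mice Ifnar1 was lower in TAMs than in MTMs by -1.29 ± 0.19 (SE, limma adjusted p = 0.0059). That call was lost with only the groups compared in the fit (limma adjusted p = 0.126). Without the MYC MTM library of mouse 2 the difference was -1.19, with a single MYC MTM library left.

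The difference of differences was called for Irf8 at -1.17 ± 0.18, Ifnar1 at -1.46 ± 0.25 and Tpp2 at -1.17 ± 0.21 (SE, limma adjusted p = 0.0184, 0.0311 and 0.0339). With mouse entered as a fixed term, none of these 3 passed (limma adjusted p = 0.108, 0.108 and 0.130), while with the mouse as a random effect all 3 did (limma adjusted p = 0.0118, 0.0208 and 0.0226). With 1 library left out they passed in 6, 4 and 3 of 11 fits. In MYC MTMs against control MTMs, limma called 0 genes in any of the 4 lists, and 11 of their 61 genes had an unadjusted p below 0.05, where 1760 of all 17475 genes had one. In TAMs the 4 lists together held 11 genes called lower and 2 called higher in MYC mice, of 61, where 12% of all genes were lower and 3.89% higher. All genes include those with a mean level below 1. The shares among better expressed genes were not counted, so these numbers do not set the lists apart.

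**Figure D5:**
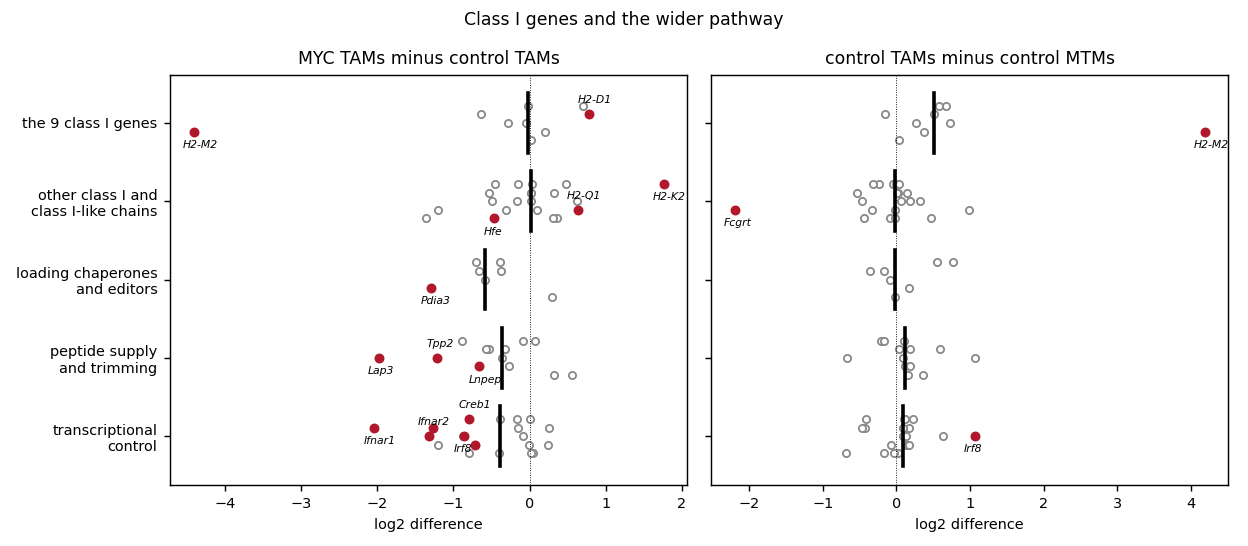
Log2 differences of the 9 genes and of the genes in the 4 wider lists, for MYC TAMs minus control TAMs (left) and control TAMs minus control MTMs (right). Red points passed limma's test and black lines are medians; up to 4 called genes per list carry their names, as do H2-M2 and H2-D1. The medians of the last 3 lists lie at -0.58, -0.37 and -0.39 on the left.

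For each member, the genes with the most similar levels over the 11 libraries were sought, with all members left out of the search. For H2-M2 they were Adamdec1, Ocstamp and Clip2 (Pearson r = 0.975, 0.966 and 0.962), and Adamdec1 was at 0.02 to 0.54 in MYC TAMs, against 3.82 to 5.20 in control TAMs. For H2-D1 they were Smpd1, Rasgef1a and Tmod1 (r = 0.980, 0.974 and 0.964), for H2-T23 Rnasek, Npc2 and Gng2 (r = 0.955, 0.954 and 0.949), and for Tap1 Sec61a1, Dhrs13 and Zdhhc3 (r = 0.957, 0.910 and 0.888). For B2m they were Tmem242, Gtf2b and Ddt (r = 0.913, 0.912 and 0.901). The first gene was Med9 for H2-K1, Rpf1 for H2-M3, Src for Tap2 and Gaa for Tapbp (r = 0.909, 0.932, 0.872 and 0.930). Among the members, H2-K1 and B2m had r = 0.786, H2-T23 and B2m 0.749, and H2-M2 and H2-D1 -0.752. These values describe 8721 genes over the same 11 libraries, which share mice, sorts and group differences.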

How the data were processed

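The deposited table gives one log2 level per gene and library, which the authors made. RNA was poly-A selected and made into stranded libraries from 500 ng with integrity numbers of 3.3 to 9.6 and 8 PCR cycles, per the labels. Per the submitters' processing notes, HISAT2, DESeq2 and the mm10 (GRCm38.p5) build were used; their roles and the formula of the values are not given in the sources used here. From the spacing of low values (8730 of 8730 whole reads within 0.05), the deposited log2 values were taken as the log2 of x + 1.00, where x is proportional to reads per length. Read numbers and depths are estimates from this, with exon lengths from GENCODE for 98.1% of genes, and cover counting error only.

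One linear model with the 4 group means was fitted to all 17475 genes and 11 libraries with limma 3.58.1 in R 4.3.3, with a variance trend, no filter and no block. Tests were two-sided, adjusted by Benjamini-Hochberg over all genes, with a threshold of 0.05. Python 3.11.15, numpy 2.4.6, pandas 2.3.3 and matplotlib 3.10.9 were used for the rest. The script was tested on simulated data.

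The number in a label is the mouse, so TAM and MTM libraries of a mouse are paired. Their deviations from the group means correlated at 0.0983 and 0.0379 in MYC mice and at 0.176, 0.211 and 0.0779 in control mice, and limma's estimate was 0.127. Libraries of a group came from different mice, and no 2 were alike within sampling noise (SD of log2 differences 0.369 to 0.815 over 1729 genes).

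The members and lists were chosen with earlier results of these data known. All members are named; in the wider lists at most 4 called genes per comparison with the smallest adjusted p, and for likeness the 3 highest correlations among named genes with a mean level of 1 or more. Exceptions, chosen after their values were seen, are Irf2, Irf9, Calr, the gate, marker and Myc values and the genes under other observations. Of 33 other heavy chains listed, 21 were measured; the other 3 lists were measured whole (7, 13 and 20 genes). Of the further marker lists, B and plasma cells had 2 of 7 genes lower in MYC TAMs than in control TAMs, and endothelium 1 of 6. Fibroblasts had 0 of 7 changed, neutrophils 2 of 9 higher and 1 lower, and monocytes 1 of 6 higher. Over all genes, 12% were lower and 3.89% higher in that comparison. The neutrophil list counted Vamp5, a different gene, in place of the listed marker Camp, through a shared older symbol. The table has 26 entries with names turned into dates or numbers and 68 that share a symbol; they stayed in the tests. Promoters are from RefSeq.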

Additional observations from a re-analysis of the deposited data

Results flagged for a closer look

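The TAM minus MTM difference of H2-M2 in MYC mice and in control mice differed by -3.21 on the log2 scale, by a test of the difference itself (limma adjusted p = 0.0286). H2-M2 was higher in the TAM library in 5 of 5 mice, by 1.10 and 0.83 in MYC mice and by 4.49, 3.54 and 4.53 in control mice. The call passed in 9 of 22 alternatives, with adjusted p from 0.0118 to 0.157, and in 2 of the 11 fits that left out a library. With the epithelial marker level as a covariate it was -3.39 and missed the threshold (limma adjusted p = 0.0677). With the mouse as a random effect it passed (limma adjusted p = 0.0163), and with the mouse as a fixed block it did not (0.0578). Vcam1 and the summed T and NK cell markers were lower in the same MYC TAM libraries, and their part in it was not tested.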

How the results depend on the processing

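There were 22 alternatives for each comparison and 23 between cell types. The calls of H2-M2 in MYC TAMs against control TAMs passed in 22 of 22 (-4.74 to -3.59) and in control TAMs against control MTMs in 23 of 23 (3.45 to 4.48). H2-D1 in TAMs stayed between 0.72 and 0.99 and passed in 16 of 22; it was also lost with only the groups compared (adjusted p = 0.109) and with mice 4 and 6 left out of the MYC TAMs (0.0660; "without TAMs 4 and 6" from here on). The number of members called in MYC TAMs against control TAMs was 2, 4 with genes of mean 1 or more, where H2-T23 and Tap1 also passed, 3 on centring, where H2-T23 did, 1 with only the groups compared, 1 without TAMs 4 and 6, 1 with the epithelial covariate, and 1 to 3 with 1 library left out. In MTMs it was 0, and 1 without a variance trend (H2-D1, adjusted p = 0.0200). In control TAMs against control MTMs it was 1, and 1 to 2 with 1 library left out. For the difference of differences it was 1, but 0 with a constant of 0.25, with the mouse as a fixed replicate block, without TAMs 4 and 6 and with the epithelial covariate, and 0 to 1 with 1 library left out. The causes were not tested. The fixed replicate block changed no other call of a member, and the random one changed none. Over all genes, called numbers were 2778 (1547 to 5029), 108 (0 to 151) in MTMs, 784 (90 to 1031) in MYC TAMs against MYC MTMs, 414 (196 to 542) in control TAMs against control MTMs and 216 (21 to 424) for the difference of differences. Centring gave 207 higher and 372 lower between the cell types of MYC mice, 127 and 214 between those of control mice.

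Of 45 member differences 32 never changed sign, and none of the other 13 was called. On centring, without TAMs 4 and 6 and with the covariate, MYC TAMs against control TAMs gave 0.17, 0.23 and 0.43 for H2-K1 and 0.19, 0.29 and 0.39 for B2m. In MYC TAMs against MYC MTMs, H2-K1 gave 0.021 without TAMs 4 and 6 and 0.051 with the covariate, H2-D1 0.10 on centring and 0.023 without TAMs 4 and 6, H2-M3 0.069 with the fixed block, 0.078 without TAMs 4 and 6 and 0.13 with the covariate, and B2m -0.42 on quantile normalisation. H2-M3 in control TAMs against control MTMs gave -0.061 with the covariate. For the difference of differences H2-M3 gave 0.031 with the fixed block, 0.040 without TAMs 4 and 6 and 0.19 with the covariate, and H2-T23 gave 0.0043 with a constant of 4, 0.085 on centring, 0.040 on quantile normalisation, 0.36 without TAMs 4 and 6 and 0.29 with the covariate. With 1 library left out, values ran in MYC TAMs against control TAMs from -0.18 to 0.061 for H2-K1, -0.12 to 0.28 for H2-M3 and -0.17 to 0.16 for B2m; in MTMs from -0.013 to 0.30 for Tap1 and -0.32 to 0.35 for Tap2; in MYC TAMs against MYC MTMs from -0.34 to 0.069 for H2-M3 and -0.088 to 0.27 for B2m; in control mice from -0.055 to 0.17 for H2-M3; and for the difference of differences from -0.38 to 0.031 for H2-M3, -0.19 to 0.21 for H2-T23 and -0.63 to 0.034 for Tap2. H2-M2 at 19 to 130 reads in MYC libraries limits the precision there.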

Other observations

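Some pathway genes that passed no test are given here because of their role, chosen after their values were seen. Nlrc5, the transactivator of class I genes, was at 1.83, 2.05 and 3.04 in MYC TAMs, against 2.82, 3.51 and 3.21 in control TAMs (difference -0.88 ± 0.30, SE). The groups overlapped through the MYC TAM library of mouse 6. Psmb8 and Psmb9, catalytic subunits of the immunoproteasome, were at 6.07 to 6.43 and 5.29 to 5.67 in MYC TAMs, against 6.61 to 6.73 and 5.70 to 5.97 in control TAMs, without overlap and without a call. In the other direction, Psmb8 was at 6.61 to 6.73 in control TAMs, against 6.96 to 7.58 in control MTMs, also not called.

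H2-Q6 and H2-Q7, non-classical heavy chains that are close paralogs, were uneven among MYC TAMs. H2-Q6 was at 4.14, 3.22 and 1.71 in MYC TAMs, against 4.08, 4.57 and 4.04 in control TAMs, and H2-Q7 was at 4.37, 3.68 and 1.96 in MYC TAMs, against 4.53, 5.06 and 4.51 in control TAMs. The lowest value of each was that of mouse 6, which gave no MTM library here.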
